A study of Mus musculus with 12 samples.

Results

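The genes described here encode the mouse enzymes that write, maintain and remove cytosine methylation at CpGs and the cofactors of these enzymes, namely Dnmt1, Dnmt3a, Dnmt3b, Dnmt3l, Uhrf1, Tet1, Tet2 and Tet3, and the data are the regions of these genes that the zinc finger protein ZBTB43 captured from purified genomic DNA. A peak was taken as belonging to a gene where it overlapped by 1 bp or more the gene span of GENCODE M21 on mm10, extended by 10 kb on both sides. By this rule 46 of the 175775 peaks on SssI-methylated DNA and 2 of the 14694 peaks on TKO DNA lay at the 8 genes. Both TKO peaks, at Dnmt1 and Tet3, lay over an SssI peak, Uhrf1 had no peak in either list, and all 46 SssI peaks held a tract of alternating purines and pyrimidines.

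ZBTB43 fused to maltose-binding protein (MBP) was used to pull down sonicated DNA, and MBP alone was used on the same DNA for the background. The methylated DNA came from the lungs of wild-type male C57BL/6N mice of 2 months and was treated with the bacterial CpG methyltransferase M.SssI. The unmethylated DNA came from male TKO ES cells, an embryonic stem cell line of genotype Dnmt1-/-Dnmt3a-/-Dnmt3b-/- that is 1 clone. Each of these 4 conditions had 2 libraries, whose reads the authors pooled before calling peaks, so a peak has 1 value in each list and no replicate error. No difference between the DNAs was therefore tested, and no p-value is given. The lung DNA and the ES cell DNA came from different cell types, and an effect of that cannot be told apart from an effect of CpG methylation. In addition, 3 of the 8 genes are themselves disrupted in the TKO cells. The genotype label does not say which bases of Dnmt1, Dnmt3a and Dnmt3b are changed. Where an SssI peak of these genes had no TKO peak over it, lack of capture and an altered sequence cannot be told apart. Dnmt1 itself had a TKO peak, described below.

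Dnmt3a and Dnmt3b place new methyl groups on CpGs, and Dnmt1 copies the pattern to the daughter strand after replication. Dnmt3l, which has no catalytic activity, stimulates the de novo enzymes in germ cells, and Uhrf1 binds hemimethylated CpGs and recruits Dnmt1. Tet1, Tet2 and Tet3 oxidise 5-methylcytosine and so start its removal. Stretches in which purines and pyrimidines alternate, such as (CA)n, (CG)n and their mixtures, are purine-pyrimidine repeats (PPRs), the class of sequence most able to adopt left-handed Z-DNA.

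The sequences below are the longest tracts of the peaks that the results turn on. A tract is an unbroken alternation of purines and pyrimidines of at least 12 bp with at least 1 C or G. They were read from GRCm38, which is the assembly of mm10, on the plus strand from 5′ to 3′, and capitals mark CpGs. The tracts under the TKO peaks are shown first, with the neighbouring tract of the Dnmt1 peak, because these positions were found in both lists.
Dnmt1, intron 2, chr9:20942441-20942480: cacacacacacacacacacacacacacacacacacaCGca
Dnmt1, intron 2, chr9:20942509-20942536: cacacaCGCGcacacacaCGcacacatg
Tet3, intron 3, chr6:83426119-83426177: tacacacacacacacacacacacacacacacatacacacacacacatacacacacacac

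The next set holds the tract of the SssI peak with the highest score at each of the other genes that had a peak, with both of the Dnmt3a peaks that tied for the highest score. None of these peaks overlapped a TKO peak.
Dnmt3a, intron 3, chr12:3853318-3853391: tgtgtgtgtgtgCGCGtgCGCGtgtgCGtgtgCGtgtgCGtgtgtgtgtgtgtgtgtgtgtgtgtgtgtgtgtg
Dnmt3a, intron 3, chr12:3864604-3864653: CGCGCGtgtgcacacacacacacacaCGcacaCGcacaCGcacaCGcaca
Dnmt3b, upstream, chr2:153640390-153640448: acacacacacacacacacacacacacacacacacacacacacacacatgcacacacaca
Dnmt3l, intron 1, chr10:78045448-78045503: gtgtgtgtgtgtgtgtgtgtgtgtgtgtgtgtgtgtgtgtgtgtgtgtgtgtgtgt
Tet1, intron 3, chr10:62859267-62859299: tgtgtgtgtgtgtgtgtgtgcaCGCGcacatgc
Tet2, intron 2, chr3:133489750-133489816: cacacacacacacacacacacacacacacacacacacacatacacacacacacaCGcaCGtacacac

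A last set, chosen after the values were seen, holds the Dnmt3a tract with the most CpGs, the longest tract of the Tet3 peak that had no CA run of 12 bp, and tracts of Uhrf1, Tet2 and Tet3 that lay under no peak.
Dnmt3a, intron 1, chr12:3819045-3819119: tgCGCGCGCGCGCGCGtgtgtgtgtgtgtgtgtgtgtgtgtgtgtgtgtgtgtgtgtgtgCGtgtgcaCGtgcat
Tet3, SssI peak, chr6:83401478-83401514: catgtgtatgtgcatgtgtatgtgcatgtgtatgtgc
Uhrf1, intron 1, no peak, chr17:56304533-56304567: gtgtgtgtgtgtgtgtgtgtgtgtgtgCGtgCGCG
Uhrf1, intron 15, no peak, chr17:56320841-56320883: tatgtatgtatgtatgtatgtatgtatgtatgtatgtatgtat
Tet2, downstream, no peak, chr3:133454822-133454880: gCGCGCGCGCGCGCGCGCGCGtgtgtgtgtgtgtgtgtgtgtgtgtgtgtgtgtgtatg
Tet3, intron 1, no peak, chr6:83457749-83457797: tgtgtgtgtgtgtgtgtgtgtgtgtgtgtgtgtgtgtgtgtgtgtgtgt

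The maintenance methyltransferase gene Dnmt1 (ENSMUSG00000004099.16, chr9:20907209-20959888, minus strand) held the strongest peak of the 8 genes in both lists. The strength of a peak is given as its score, which is 10 times the −log10 q-value of the peak caller. Scores were used within their own list only, for ranks, ranges, medians, correlations and a stricter threshold. The TKO peak at chr9:20942268-20942628 was 361 bp wide, scored 1772 and ranked 958 of 14694, in the top 6.52% of its list. The SssI peak over it, chr9:20942224-20942758, was 535 bp wide, scored 1862 and ranked 1262 of 175775, in the top 0.718% of its list. The TKO peak covered 67.5% of the SssI peak. The midpoints of both lay in intron 2 of the 39-exon transcript. Both contained the whole coding part of exon 2, 37 bp, which lay 102 bp from the longest tract. That tract was 40 bp with 1 CpG, and a shorter tract of 28 bp with 3 CpGs followed it. In all, the TKO peak held 10 CpGs and the SssI peak 11. Of the SssI peaks in the same hundredth of the list by rank, 95.3% overlapped a TKO peak.

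The other 4 SssI peaks of Dnmt1 overlapped no TKO peak. A peak in intron 28 scored 559, was 277 bp wide and held 7 CpGs, all outside its longest tract of 33 bp. The other three lay upstream of the Dnmt1 span, within S1pr2, a gene for a sphingosine phosphate receptor, and had no CpG. They scored 196, 38 and 41, with tracts of 52, 26 and 30 bp. The 2 CpG-bearing peaks of Dnmt1 thus scored above its 3 CpG-free peaks, with no overlap between the scores. Median scores over the whole SssI list had the same order, at 81 where CpGs were absent and 328 where at least 6 were present. The order at Dnmt1 rests on few peaks, with the CpG-free ones all within S1pr2, and cannot be called particular to this gene.

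The de novo methyltransferase gene Dnmt3a (ENSMUSG00000020661.15, chr12:3806007-3914443, plus strand) had 10 SssI peaks, all in introns, and no TKO peak. The 2 highest both scored 756. They were 261 bp wide at chr12:3853225-3853485, with 9 CpGs, and 291 bp wide at chr12:3864486-3864776, with 11 CpGs, and the longest tract of each held 7 CpGs. Their ranks were 15681 and 15675, in a hundredth of the list where 36.7% of the peaks overlapped a TKO peak. The second of them lay 1560 bp upstream of an annotated start within the gene. The peak in intron 1 at chr12:3818961-3819419 was wider, at 459 bp, and its tract of 75 bp, with 9 CpGs, was the longest of all 46 peaks, but its score was 289. It was also the only peak of the 46 with a (CG)n run of 12 bp or more, and had 14 CpGs, the highest number among them. The scores of the remaining 7 peaks ran from 24 to 171.

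The Dnmt3a peaks fell into CpG-rich and CpG-free ones, with none between. There were 6 with 6 or more CpGs, at scores of 91 to 756, and 4 without a CpG, at scores of 24 to 171, so the ranges of the scores overlapped. The longest tracts of the CpG-free peaks were nearly pure (CA)n of 20 to 60 bp. Another 2 peaks lay near annotated starts. The peak at chr12:3848855-3848988, 714 bp upstream of a start, scored 101 and had no CpG, and the peak at chr12:3890585-3890797, 1037 bp upstream of a start, scored 91 and had 6 CpGs.

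Dnmt3b (ENSMUSG00000027478.15, chr2:153649450-153687730, plus strand), the other de novo enzyme gene, had 2 SssI peaks and no TKO peak. The peak upstream of the gene, at chr2:153640303-153640546, scored 328 with a tract of 59 bp and 1 CpG outside the tract. The other, at chr2:153668061-153668245 in intron 8, scored 49 with a tract of 18 bp, the shortest among the 46, and no CpG. It lay 1217 bp upstream of an annotated start within the gene. The longer of the tracts went with the higher score.

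The cofactor genes Dnmt3l and Uhrf1 had 2 and 0 SssI peaks. At Dnmt3l (ENSMUSG00000000730.13, chr10:78041947-78063622, plus strand) an SssI peak in intron 1 scored 197 with a tract of 56 bp of pure (CA)n and no CpG. A peak just downstream of the gene scored 22, the lowest score among the 46, with a tract of 31 bp and 2 CpGs outside it. Uhrf1 (ENSMUSG00000001228.14, chr17:56303321-56323486, plus strand) had no peak within its window of 40.2 kb. Its window was not empty of tracts, with 18 of at least 12 bp and 2 of at least 24 bp. The tract of 35 bp in intron 1 carried a CA run of 27 bp and 3 CpGs and lay 47894 bp from the nearest SssI peak. The other, of 43 bp in intron 15, was made of a TATG repeat with no CA run over 3 bp.

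Among the oxidase genes, Tet1 (ENSMUSG00000047146.17, chr10:62804570-62908996, minus strand) had 10 SssI peaks and no TKO peak. The highest, at chr10:62859158-62859427 in intron 3, scored 520, was 270 bp wide and had 5 CpGs and a tract of 33 bp, and it overlapped the gene model Gm48353. The next, at chr10:62908375-62908607, scored 495 and lay 505 bp from the 5′ end of the gene, in intron 1 of a short transcript that starts upstream of the 13-exon one. A peak in the last exon, outside the coding sequence, scored 76 and had a tract of 28 bp and no CpG. It was the only Tet1 peak without a CpG. Peaks 708 bp and 1075 bp upstream of annotated starts within the gene scored 241 and 87. No Tet1 peak had more than 5 CpGs, and 8.39% of the whole SssI list had 6 or more. At Dnmt3a 6 of 10 peaks had 6 or more.

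Tet2 (ENSMUSG00000040943.12, chr3:133463679-133545139, minus strand) had 8 SssI peaks and no TKO peak. The highest, at chr3:133489664-133489880 in intron 2, scored 454 with a tract of 67 bp and 3 CpGs. The widest of the 46 peaks also lay in Tet2, at 551 bp, with a score of 320 and 4 CpGs. It was 215 bp from a peak that scored 76 with a tract of 21 bp. The other Tet2 peaks scored 38 to 190. The peaks of Tet2 had 0 to 4 CpGs.

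Tet3 (ENSMUSG00000034832.15, chr6:83362373-83459084, minus strand) had 9 SssI peaks and the other TKO peak. Of these SssI peaks, 6 lay in the gene span, 2 upstream of it and 1 downstream. The downstream peak scored 420 and overlapped the gene Bola3. The TKO peak at chr6:83426003-83426227 in intron 3 was 225 bp wide and scored 47, rank 13711 of 14694, near the end of its list. It had a tract of 59 bp and no CpG at all. The SssI peak over it, chr6:83426023-83426258, was 236 bp wide, scored 440 at rank 25947 and was the highest of Tet3, with 1 CpG outside the tract. The TKO peak covered 86.9% of it. Of the SssI peaks in its hundredth of the list, 9.27% overlapped a TKO peak. The TKO peak of Tet3 held no CpG, as did 24.8% of the TKO list. That of Dnmt1 held 10, and 18.5% of the TKO list held 6 or more. The scores of the Tet3 and Dnmt1 peaks lay at opposite ends of the TKO list. Whether score goes with CpGs in that list was not tested.

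At Tet3 the SssI peaks at chr6:83440722-83440959 and chr6:83441013-83441307 were separated by only 53 bp. They scored 217 and 211 and had 7 and 12 CpGs. The first overlapped an exon of a retained-intron transcript only, and the second contained the coding part of exon 3 of the 12-exon transcript, 57 bp, at a distance of 60 bp from its longest tract. Their midpoints lay 792 and 472 bp downstream of an annotated start. The lowest Tet3 peaks scored 49 and 69. The peak of score 69 was the only peak of the 46 in which no CA run reached 12 bp. Its longest CA run, of 11 bp, lay in a shorter tract of the peak, at chr6:83401272-83401296. The longest tract had a CA run of 5 bp, and AT steps recur along it.

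**Figure D1:**
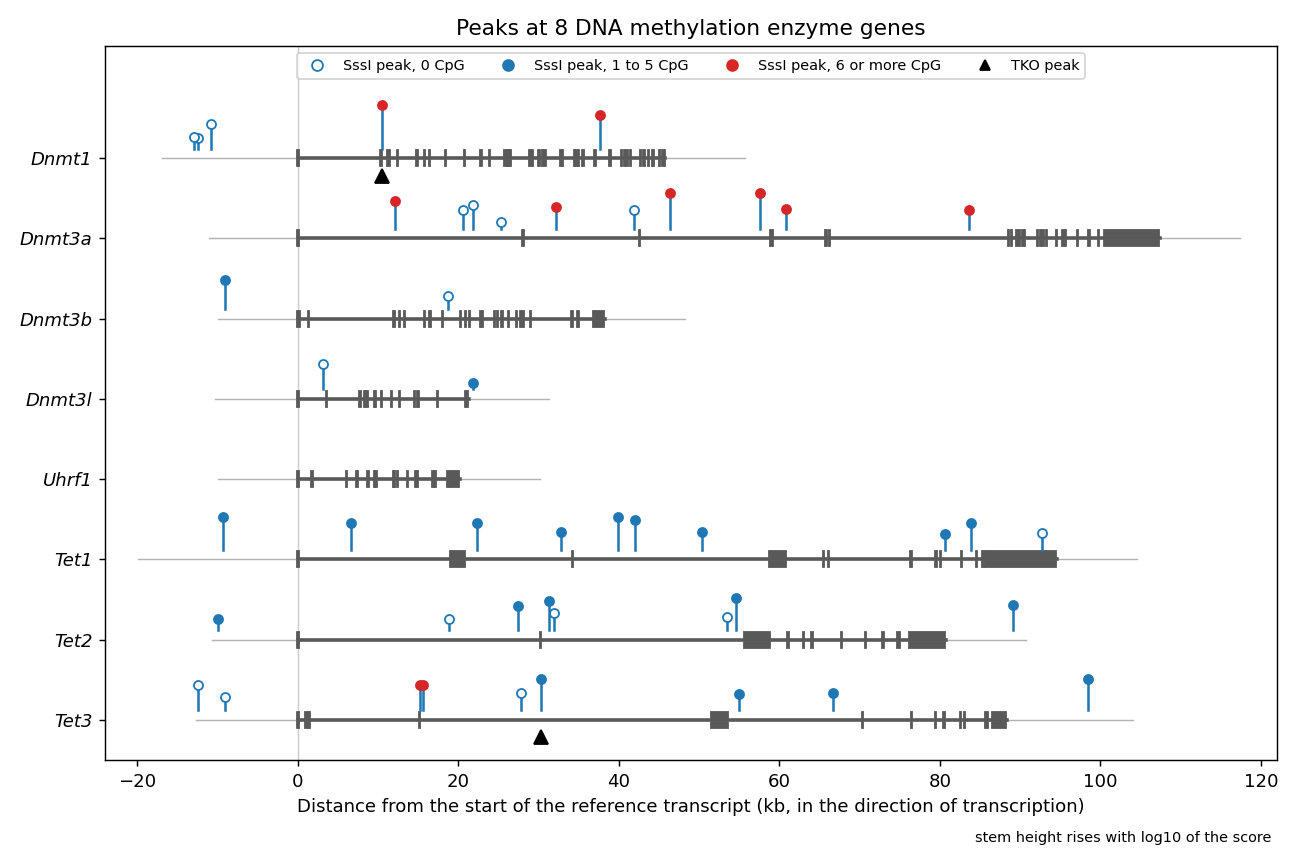
Positions of the 46 SssI peaks (stems with circles) and the 2 TKO peaks (black triangles) along each gene, in kb from the start of the reference transcript and in the direction of transcription. Thick lines and boxes are the reference transcript and its exons, thin lines the window, and stem height rises with log10 of the SssI score. The red circles, peaks with 6 or more CpGs, sit at Dnmt1, Dnmt3a and Tet3 only, and Uhrf1 has no stem.

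Across the 8 genes, 2 of 46 SssI peaks overlapped a TKO peak, 4.35% (Wilson 95% interval 1.2 to 14.5), against 8.23% of the whole SssI list. Each of the 2 TKO peaks overlapped a peak of the SssI list, against 99.4% of the whole TKO list. SssI peaks were found at 7 of the 8 genes, against 83.1% of the 21938 protein-coding genes with the same rule, and TKO peaks at 2 of the 8, against 24.7%. The 3 genes disrupted in the TKO cells had 1 shared peak of 17 SssI peaks, and the other five genes 1 of 29. The Wilson intervals cover the counting error of peaks, and a second capture could differ by more. The counts at the 8 genes lay near those of the lists and genes as a whole.

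Sharing followed the rank of the SssI peak in the whole list when the list was divided into 10 equal parts by score. Of the strongest part 68.6% overlapped a TKO peak, of the next part 10.0% and of the part after it 1.89%. The peaks of the 8 genes were spread over these parts, with 3, 9, 10, 3, 0, 5, 5, 2, 3 and 6 peaks from the strongest to the weakest. The Dnmt1 peak was the shared one of the 3 in the strongest part, and the unshared ones were both from Dnmt3a. The Tet3 peak was the shared one of the 9 in the next part.

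The number of SssI peaks followed the length of the genes. Tet1 had 8.04 peaks per 100 kb of window, Tet2 7.88, Dnmt3a 7.79, Tet3 7.71 and Dnmt1 6.88. Dnmt3l had 4.80, Dnmt3b 3.43 and Uhrf1 0. The 5 densest genes thus lay within a narrow range, and together the 8 genes had 6.73 peaks per 100 kb. Over the 7870 protein-coding genes with windows of 40.2 to 128 kb, the range of the 8, the pooled density was 7.01 per 100 kb. Of all protein-coding genes, 66.4% had a lower density than Tet1, 28.5% a lower one than Dnmt3b, and 16.9% had no SssI peak, like Uhrf1. Among the genes with windows of 40.2 to 128 kb, 558 of 7870 had none, 7.09%. TKO peaks had a pooled density of 0.292 per 100 kb at the 8 genes and 0.621 over genes with windows of that range.

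**Figure D2:**
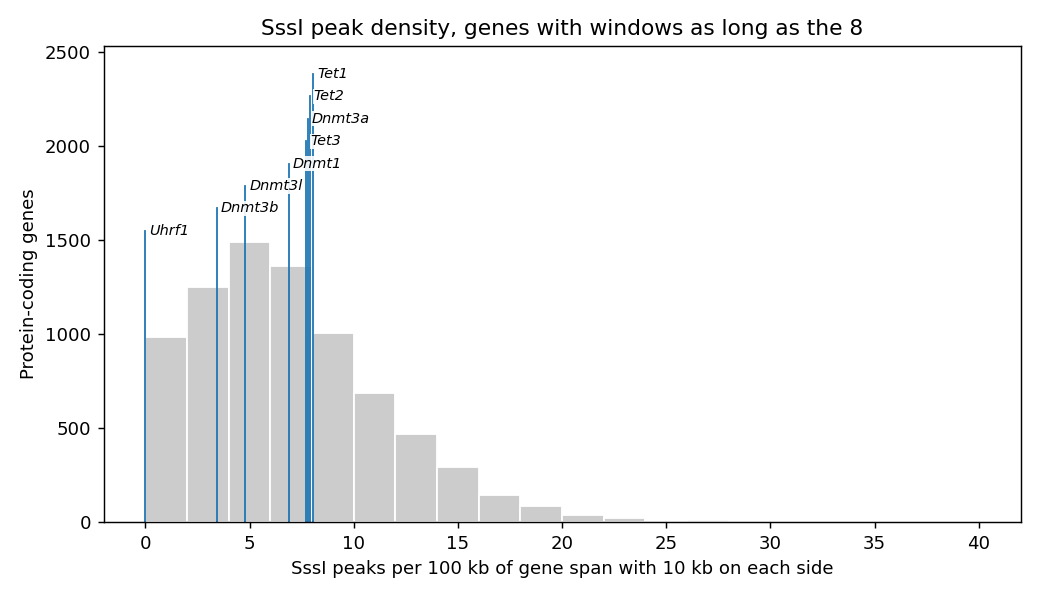
Number of protein-coding genes (y axis) by SssI peaks per 100 kb of gene span with 10 kb on each side (x axis), for the 7870 genes with windows of 40.2 to 128 kb. Lines mark the 8 genes, from 0 at Uhrf1, the lowest possible value, to 8.04 at Tet1. The quartiles of the plotted genes are 3.58 and 9.59, with Uhrf1 and Dnmt3b below the lower one.

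By position, 35 of the 46 SssI peaks had their midpoint in an intron, 1 in an exon, 7 upstream and 3 downstream of the gene. By the exons of any transcript of the gene, 33 midpoints lay in introns (71.7%, Wilson 95% interval 57.5 to 82.7), 3 in exons (6.52%, 2.24 to 17.5) and 10 in the flanks (21.7%, 12.3 to 35.6). For the SssI peaks of all protein-coding genes, placed in the same way, the shares were 70.2%, 2.12% and 27.7%. An exon of the gene was overlapped by 4 peaks, those of Dnmt1, Tet1 and Tet3 described above. A peak midpoint lay within 3000 bp of the 5′ end of the gene at Tet1 only, 1 of 8 genes (Wilson 95% interval 2.24% to 47.1%), against 29.8% of protein-coding genes, a share within that interval. The 5′ end of Tet1 is the start of the short transcript. The SssI peak nearest to the start of the reference transcript was 3.16 kb inside Dnmt3l, 6.57 kb inside Tet1, 10.5 kb inside Dnmt1 and 12.2 kb inside Dnmt3a. At Dnmt3b, Tet2 and Tet3 the nearest peaks were 9.03, 9.91 and 9.12 kb upstream of it. The 6 peaks within 3000 bp upstream of any annotated start, in Dnmt3a, Dnmt3b and Tet1, all lay at starts inside the genes and not at that of the reference transcript.

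All 46 SssI peaks had a tract of 12 bp or more, and all had one of 16 bp or more (100%, Wilson 95% interval 92.3 to 100), against 98.7% and 97.2% of the whole list. The longest tracts ran from 18 to 75 bp with a median of 43 bp, against 46 bp over the list. A CA run of at least 12 bp, read as CA or TG since both strands count, lay in 45 of 46 peaks, against 94.0% of the list. In 27 of 46 the CA run made up at least 90% of the longest tract (58.7%, Wilson 95% interval 44.3 to 71.7). Over all tracts of 24 bp or more in the windows of the 8 genes, under a peak or not, 42 of 103 were of this nearly pure kind. The latter include tracts under the same peaks, and the former include longest tracts under 24 bp, so these shares do not compare captured with uncaptured tracts. Read on the strand of the listed gene, also for the 10 peaks in the flanks, the run of the longest tract was TG in 30 peaks and CA in 16. A (CACG)n run of 16 bp lay in none of the 46 peaks. The shares of nearly pure tracts, of TG and CA readings and of (CACG)n runs are not given here for the whole list. They therefore cannot be called particular to these genes.

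CpGs were unevenly spread over the peaks. No CpG was present in 16 of 46 SssI peaks, 34.8% (Wilson 95% interval 22.7 to 49.2), against 31.9% of the list. At least 6 CpGs were present in 10 of 46, 21.7% (12.3 to 35.6), against 8.39% of the list. Of these 10 CpG-rich peaks, 6 lay in Dnmt3a, 2 in Dnmt1 and 2 in Tet3. By role, the methyltransferase genes had 8 CpG-rich peaks of 17, the oxidase genes 2 of 27 and the cofactor genes 0 of 2. The peaks of 1 gene share a locus and are not independent. In 28 of 46 peaks the longest tract itself had no CpG, 60.9% against 71.0% of the list. These were the 16 peaks without any CpG and 12 of the 30 peaks with a CpG, such as the Dnmt1 peak of intron 28.

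The 16 peaks without a CpG had a median score of 76 and scored at most 198. The 13 peaks with 1 to 2 CpGs had a median of 190, the 7 with 3 to 5 CpGs 362, and the 10 with 6 or more 253, with scores of 91 to 1862. In the whole list these medians were 81, 102, 161 and 328. Over the 46 peaks the score had a Spearman correlation of 0.60 with the number of CpGs, 0.55 with the length of the longest tract, 0.17 with the length of the CA run and 0.82 with the width of the peak. Over the 175775 peaks of the list the correlations with CpGs, tract length and width were 0.31, 0.29 and 0.79. These are descriptions over peaks of 1 pooled list, which share their libraries, depth and caller. CpGs, tracts and CA runs were measured within the peak, so a wider peak can hold more of each. Correlations at a fixed width are not given here. The GC content of the peak had a correlation of 0.09 with the score, against 0.04 over the list. The correlation with the CA run is not given here for the list. Overlap with a TKO peak was found in 0 of the 16 CpG-free SssI peaks (Wilson 95% interval 0% to 19.4%) and 1 of the 13 with 1 to 2 CpGs (1.37% to 33.3%). It was found in 0 of the 7 with 3 to 5 (0% to 35.4%) and 1 of the 10 with 6 or more (1.79% to 40.4%). The shares in the list rose from 2.75% through 5.97% and 14.6% to 27.6%, each within the interval of its class. So few shared peaks cannot show whether this rise holds at the 8 genes.

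**Figure D3:**
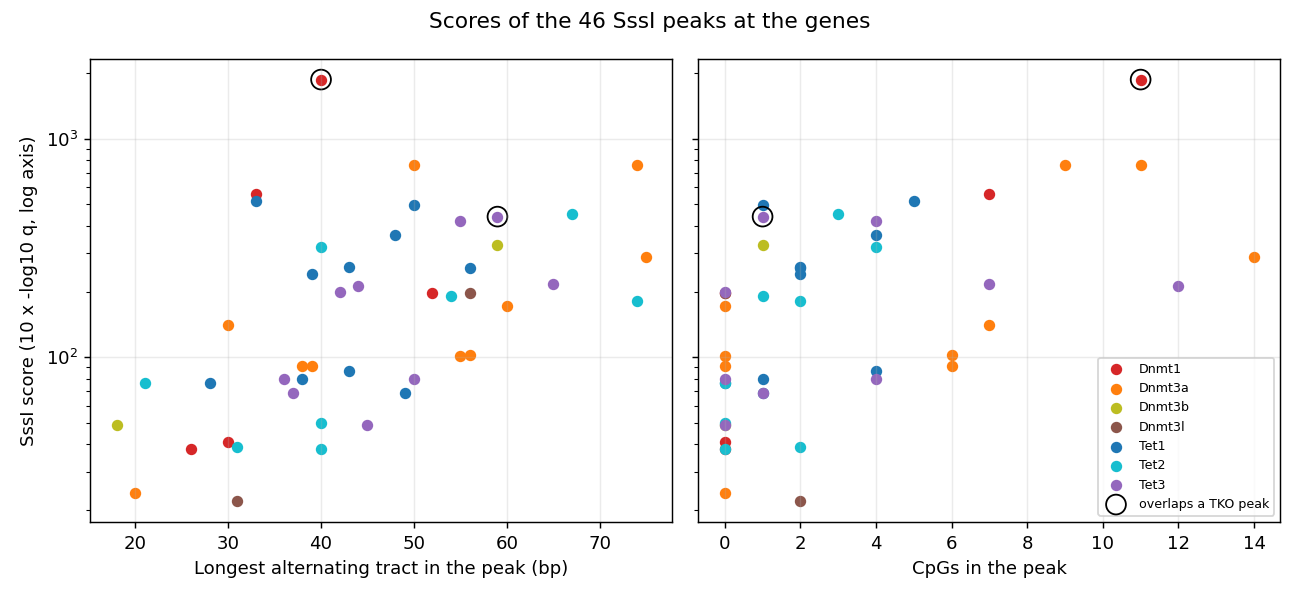
Score of each of the 46 SssI peaks (log axis) against the length of its longest alternating tract in bp (left) and its number of CpGs (right), coloured by gene. Rings mark the peaks that overlap a TKO peak, at scores of 1862 (Dnmt1) and 440 (Tet3), and no peak without a CpG scores above 198.

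The windows of the 8 genes also held tracts without a peak. Of tracts of 12 to 15 bp, 41 of 235 overlapped an SssI peak, 17.4% (Wilson 95% interval 13.1 to 22.8), and of tracts of 36 to 59 bp, 29 of 54, 53.7% (40.6 to 66.3). Over the genome these shares were 14.3% and 55.5%. Of tracts of 16 to 23 bp, 17 of 97 did so, 17.5% (11.2 to 26.3), against 25.5% over the genome. Of tracts of 60 bp or more, 6 of 9 did so, 66.7% (35.4 to 87.9), against 54.2% over the genome. Tracts of 36 bp or more thus lay under a peak at a higher share than those under 24 bp, both at these genes and over the genome, and 3 of the 9 longest lay outside every SssI peak. The longest tract of each of the 46 peaks had at least 18 bp. Each tract of 12 to 15 bp under a peak at these genes therefore shared that peak with a longer tract, and its share does not show capture of short tracts by themselves.

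**Figure D4:**
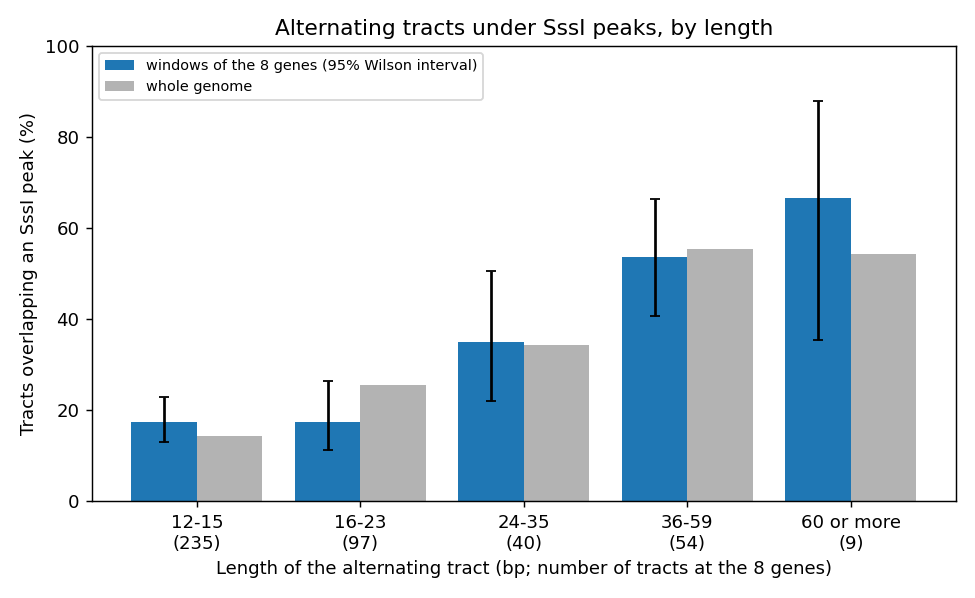
Percentage of alternating tracts that overlap an SssI peak (y axis), by tract length in bp (x axis, with the number of tracts at the 8 genes in parentheses), at the 8 genes (blue bars, with Wilson 95% intervals) and over the genome (grey bars). The blue bars go from 17.4% at 12 to 15 bp to 66.7% at 60 bp or more. At the 8 genes, each tract of 12 to 15 bp under a peak shared that peak with a longer tract.

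Of the 103 tracts of 24 bp or more at the 8 genes, 49 lay under an SssI peak and 54 did not. Those under a peak had a median length of 42 bp and a median CA run of 37 bp, and those outside had 36 bp and 15.5 bp, so they differed more in the CA run than in length. Of tracts with a CA run of 30 bp or more, 33 of 52 lay under an SssI peak, 63.5% (Wilson 95% interval 49.9 to 75.2). Of those with a CA run of 12 to 29 bp, 12 of 24 did so, 50.0% (31.4 to 68.6). Of those with a CA run under 12 bp, 4 of 27 did so, 14.8% (5.92 to 32.5). The Uhrf1 TATG tract is of this last kind. So is the Dnmt1 tract at chr9:20942509-20942536, which lay under an SssI peak that also held a CA run of 37 bp. A tract can thus be counted as under a peak together with a neighbour, and tracts of the same peak are not independent. The medians and the shares by CA run are not given here for the genome. They therefore cannot be called particular to these genes. The tracts outside peaks also included pure (CA)n. The Tet3 tract of 49 bp in intron 1 had no interruption and lay 7631 bp from the nearest SssI peak. The Tet2 tract of 59 bp, with 10 CpGs in a (CG)n block before a CA run of 36 bp, lay 275 bp from an SssI peak that scored 190 and was itself in no peak. A tract in no peak is one that did not pass the caller's threshold, and how well reads can be placed in such repeats was not tested.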

How the data were processed

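The authors sequenced DNA bound by MBP-ZBTB43 or by MBP in paired-end libraries, aligned reads to mm10 and called peaks on pooled duplicates against the MBP libraries. The submitters' processing notes name bcl2fastq 1.9.0, BWA 0.7.17, SAMtools, MACS2 2.2.7.1 and deepTools 3.4.3. The 2 deposited peak lists give positions and a score, a whole number that the authors' caller makes from the q-value as 10 times its −log10. Peaks with q-values under 0.05 were kept. A score rises with library depth, so ranks were taken within a list, with ties broken by width. The lists hold no read counts, so the reads behind a peak are not known here. The paper gives a depth for affinity-seq libraries in general, which was not used, and coverage of single libraries was not analysed here. The 4 sperm libraries were not analysed here.

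Peaks were placed by midpoint on GENCODE M21, on the principal transcript first. Tracts, CpGs and CA runs were read from the reference genome, and bases that differ in the captured DNA were not seen. Tracts were clipped to the peak. The genes, lists and rules were chosen with earlier results of these data known. The peaks named were every TKO peak with the SssI peak over it, the highest SssI peak of each gene, SssI peaks over an exon or within 3000 bp upstream of an annotated start, and any without a tract. Any other peak named was chosen after its values were seen. Alternatives were no flank, a flank of 25 kb, q-values under 1e-05, merging within 200 bp, tracts of 16 and 24 bp, 50% coverage and other placings of exons and CpGs. Python 3.11.15, numpy 2.4.6, pandas 2.3.3 and matplotlib 3.10.9 were used, and the finding of tracts and overlaps was tested on simulated data.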

Additional observations from a re-analysis of the deposited data

How the results depend on the processing

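The number of TKO peaks at the 8 genes fell from 2 to 1 at q-values under 1e-05, where the Tet3 peak was lost, and with it the shared share became 2.63% in place of 4.35%. The other 20 of 21 alternatives moved the values by less than 1.5 times for counts and within the counting interval for shares. The SssI peaks numbered 36 without a flank, 57 with a flank of 25 kb, 38 at q-values under 1e-05 and 45 after merging peaks within 200 bp, in place of 46. The share in an intron went from 76.1% to 69.6% when any overlap with an exon counted as an exon, and the share without a CpG from 34.8% to 30.4% within 100 bp of the midpoint. The density went from 6.73 to 5.56 per 100 kb at q-values under 1e-05. Leaving out a library was not done, since each list was called on pooled duplicates and coverage of single libraries was not analysed here. No paired analysis was possible because the peak lists carry no values of single replicates.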

Other observations

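A wider list of 28 other genes linked to DNA methylation, counted with the same span and flank, had 75 SssI peaks and 7 TKO peaks. For counting only, these genes were listed under readers and binders of methylated DNA, partners of maintenance and silencing, removal and repair, and the methyl donor. At least 1 SssI peak was found at 22 of the 28, against 83.1% of protein-coding genes, and at least 1 TKO peak at 6, against 24.7%. The pooled density was 5.35 SssI peaks per 100 kb, against 6.73 at the 8 genes described above. Uhrf2, the paralog of Uhrf1, had 7 SssI peaks in a window of 83.2 kb and no TKO peak, whereas Uhrf1 had 0 in 40.2 kb. The glycosylase gene Tdg, which removes the bases that Tet enzymes oxidise, had 4 SssI peaks and 1 TKO peak in 41.0 kb. Of the 6 genes with no SssI peak, 1 had a TKO peak and 5 had no peak in either list.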
